A study of Mus musculus with 2 samples.

Results

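The zinc finger genes that mouse nomenclature names Zfp followed by a number were described in nuclei of an adult and an aged mouse heart. A gene was included when it lay on chromosomes 1 to 19 and had at least 20 reads over SNPs in both libraries, which 268 of 348 listed Zfp genes did, out of 12736 genes of any kind with that depth. Members were therefore selected on their total reads, and nothing is read from the fact that they are detected. Among the other Zfp genes, 20 reached 20 reads in the adult library only, 3 in the aged library only and 57 in neither. Just inside the limit were Zfp239 with 21 adult and 20 aged reads and Zfp459 with 133 and 20, and just outside it were Zfp941 with 21 and 18 and Zfp28 with 34 and 18.

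The study followed genes that escape X inactivation with age, and this experiment measured single-nucleus RNA from 1 female at 9 weeks (adult) and 1 female at 78 weeks (aged) by their age labels, although the deposited name of the aged sample's data gives a different number of weeks. Both were F1 hybrids of a C57BL/6J (BL6) mother and a CAST/EiJ (CAST) father. The genotype label names that plain hybrid for both animals and the study calls them wild type, while the breed label names a BL6 mother heterozygous for an Xist deletion. Reads from nuclei of all cell types whose active X chromosome was the BL6 one were pooled for each animal, so the nuclei were selected on the X but not on the autosomes described here. With 1 library per age, no difference below has a replicate check, an age difference cannot be told apart from a difference between these 2 animals or libraries, and every interval covers counting error only.

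Most Zfp genes encode C2H2 proteins, in which each finger folds around a zinc ion held by cysteines and histidines and contacts a few bases of DNA. Arrays of such fingers give a protein its sequence preference, and many family members also carry a KRAB domain, which recruits the corepressor Trim28 and, through it, the histone methyltransferase Setdb1 and DNA methylation. KRAB zinc finger genes arose by tandem duplication, lie in clusters, and many silence retroelements or keep imprints. The Zfp name also covers unrelated zinc-binding proteins, among them the CCCH factors Zfp36, Zfp36l1 and Zfp36l2 that trigger mRNA decay.

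Fingers of the C2H2 type are joined by a conserved linker, the residues of which leave a trace in the coding DNA that can be counted. The longest reading frame of each GENCODE M21 protein-coding transcript was searched on the coding strand for ACNGGNGANAANCCN, where N is any base. Of 262 members with such a transcript, 192 (73.3%) held it at least 1 time and 117 (44.7%) at least 5 times, with a median of 4 and a maximum of 18, against 2.38% and 1.18% of all 21810 coding genes. Stretches of equal length from 3 members whose values are described below are shown to make the repeat visible, with the linkers in capitals (coding bases 616 to 798 of Zfp157, 916 to 1098 of Zfp235 and 1570 to 1752 of Zfp595).
Zfp157: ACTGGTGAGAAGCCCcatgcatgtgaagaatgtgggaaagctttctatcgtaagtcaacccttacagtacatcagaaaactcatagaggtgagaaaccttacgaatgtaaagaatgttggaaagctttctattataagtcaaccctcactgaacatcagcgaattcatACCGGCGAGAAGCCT
Zfp235: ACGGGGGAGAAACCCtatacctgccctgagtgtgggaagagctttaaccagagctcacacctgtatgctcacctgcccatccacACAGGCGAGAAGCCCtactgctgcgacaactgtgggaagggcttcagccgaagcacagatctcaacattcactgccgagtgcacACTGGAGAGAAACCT
Zfp595: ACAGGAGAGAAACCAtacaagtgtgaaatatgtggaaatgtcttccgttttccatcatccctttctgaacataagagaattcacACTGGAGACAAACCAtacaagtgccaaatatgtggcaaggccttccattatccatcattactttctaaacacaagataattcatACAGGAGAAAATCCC
The Zfp157 window held 2 matches and the other two held 3 each, and base by base Zfp157 was identical to Zfp595 at 65.0% of positions and to Zfp235 at 55.7%. The repeat also bears on the counts, since reads from near-identical copies may be split or lost. In 37 members at least 10% of the 50-base words of the transcript occurred in another annotated gene, while 120 members shared none.

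The RefSeq promoter table (GRCm38.p6, 250 bases before to 50 after a start) matched 221 members with 271 starts. Their windows held a median of 15 CG dinucleotides, against 7 in all 31396 autosomal windows. That comparison set holds all 25748 autosomal genes of the promoter table, without the minimum of reads that members had to meet. The CG gap and the motif gaps that follow are therefore not like for like, and none was tested. The TATAAA box was in 7.38% of member windows and 13.6% of all, CCAAT in 42.4% and 37.3%, and the GC box GGGCGG in 43.2% and 36.0%, each searched on both strands. Windows are shown for Zfp157, read from BL6 only in the adult, for Zfp780b, BL6-biased at both ages, and for Zfp459 and Zfp595, neighbors that fell together, with each CG in capitals.
Zfp157, chr5:138441226-138441525, plus strand: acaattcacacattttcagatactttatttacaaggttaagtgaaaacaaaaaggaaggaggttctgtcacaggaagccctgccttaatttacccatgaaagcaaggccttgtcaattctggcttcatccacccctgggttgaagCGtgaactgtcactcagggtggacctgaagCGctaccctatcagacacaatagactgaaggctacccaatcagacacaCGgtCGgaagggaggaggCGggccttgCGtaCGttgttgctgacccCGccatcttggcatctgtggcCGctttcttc
Zfp780b, chr7:27979108-27979407, minus strand: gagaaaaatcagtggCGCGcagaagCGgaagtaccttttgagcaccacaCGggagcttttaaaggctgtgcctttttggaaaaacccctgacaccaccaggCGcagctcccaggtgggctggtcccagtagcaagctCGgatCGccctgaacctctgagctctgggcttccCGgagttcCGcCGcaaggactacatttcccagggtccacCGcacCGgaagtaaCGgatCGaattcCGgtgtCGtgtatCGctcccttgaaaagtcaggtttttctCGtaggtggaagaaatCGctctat
Zfp459, chr13:67421369-67421668, minus strand: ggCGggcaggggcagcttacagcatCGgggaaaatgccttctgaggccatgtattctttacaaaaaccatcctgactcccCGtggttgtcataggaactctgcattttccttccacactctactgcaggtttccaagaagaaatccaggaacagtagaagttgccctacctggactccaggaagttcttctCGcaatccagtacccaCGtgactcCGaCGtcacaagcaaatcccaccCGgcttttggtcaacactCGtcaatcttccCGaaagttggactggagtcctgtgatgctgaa
Zfp595, chr13:67332511-67332810, minus strand: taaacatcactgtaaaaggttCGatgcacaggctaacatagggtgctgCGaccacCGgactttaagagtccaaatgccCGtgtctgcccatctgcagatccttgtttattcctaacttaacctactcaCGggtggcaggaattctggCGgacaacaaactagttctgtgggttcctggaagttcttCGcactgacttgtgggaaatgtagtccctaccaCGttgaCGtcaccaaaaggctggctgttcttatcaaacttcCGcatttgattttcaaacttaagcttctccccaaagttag
Zfp780b held 19 CG, Zfp157 9, and Zfp459 and Zfp595 10 each. These are letters in a window and were not measured for methylation or binding here.

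In all, 9747535 reads over SNPs were counted in the adult heart and 5805807 in the aged heart, and the members took 1.04% and 1.01% of them. The median member had 151.5 adult reads and 99 aged reads (ranges 21 to 7468 and 20 to 3120), and 141 members had under 100 reads in the shallower library. Cell type markers showed heart tissue, as the 6 cardiomyocyte genes summed to 28010 RPM (reads scaled to a library total of 1000000) in the adult heart and 25423 in the aged one, and the liver marker Alb had 0 adult reads and 1 aged read. The summed fibroblast markers went from 610 to 1012 RPM, endothelial markers from 526 to 841, smooth muscle markers from 92.3 to 280 and macrophage markers from 270 to 429, whereas lymphocyte markers went from 60.3 to 39.4 and mesothelial markers from 46.5 to 11.4. The cardiomyocyte sum was lower because of Ttn, and 4 of its 6 genes were higher. The part of these marker differences in the member values was not tested, and fewer cells of a type cannot be told apart from less RNA per cell. Over all autosomal genes the median log2 ratio of aged to adult RPM was 0.22, so changes in scaled reads are given both as measured and relative to that shift ("centered").

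The first question was how evenly the maternal BL6 and paternal CAST copies of the Zfp genes were read. The BL6 share of a gene is its allelic ratio recomputed from the read counts, with 1 for BL6 only and 0 for CAST only. Pooled over all autosomal genes, BL6 took 53.4% of adult and 53.8% of aged reads. The median adult share of a member was 0.544 (interquartile range 0.478 to 0.605) and the median aged share 0.555 (0.474 to 0.629), beside 0.534 and 0.537 for all autosomal genes. A gene was called biased when its exact Clopper-Pearson 95% interval lay wholly on the same side of the pooled share in both libraries. By that rule 39 members (14.6%) were BL6-biased, against 13.7% of the 12390 autosomal genes with that depth, and 24 (8.96%) were CAST-biased, against 12.8%. The BL6 count was close to the background and the CAST count below it, and neither gap was tested.

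**Figure D1:**
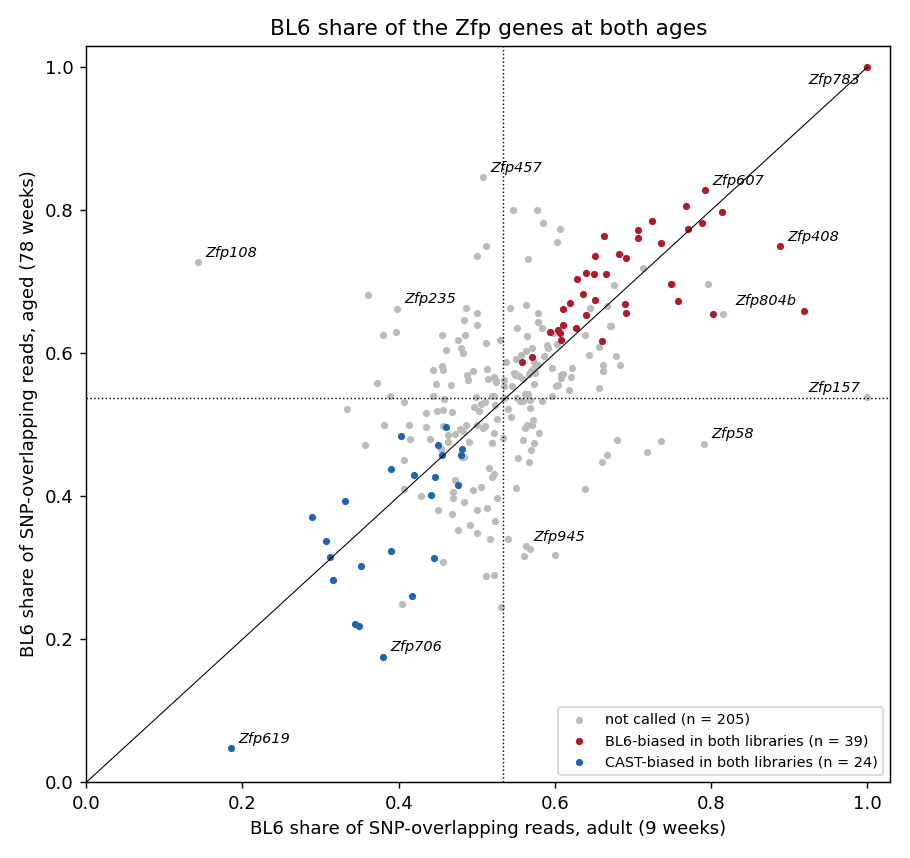
BL6 share of SNP-overlapping reads of the 268 Zfp genes in the adult (x axis) and aged (y axis) heart library, 1 point per gene. Red points are the 39 genes called BL6-biased and blue points the 24 called CAST-biased in both libraries, the diagonal marks equal shares and dotted lines the pooled autosomal share of each library; Zfp157 and Zfp108 lie farthest from the diagonal.

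A share of at least 0.7 in both libraries was found for 12 members (4.48%, against 4.72% of autosomal genes), and a share of 0.3 or less for 1 (0.373%, against 1.74%). The most one-sided was Zfp783 (chr6:47943175-47954549), annotated as a long noncoding RNA, with 30 of 30 adult and 50 of 50 aged reads from BL6. Its row overlapped the coding gene Zfp956, which had 24 BL6 reads of 36 in the adult and 11 of 24 in the aged heart. The antisense RNA Zfp335os had 154 of 189 and 181 of 227 BL6 reads, while the overlapping gene Zfp335, a subunit of a histone methyltransferase complex, had 24 of 46 and 20 of 37. Whether these counts used strand is not given in the sources used here, so reads of each overlapping pair cannot be told apart where the rows share sequence. In all 66 members overlapped another row, 18 of them a Zfp row. Among members named below these were Zfp809 (with Zfp599), Zfp273, Zfp329, Zfp346, Zfp384, Zfp385b, Zfp407, Zfp408, Zfp423, Zfp459, Zfp462, Zfp516, Zfp536, Zfp595 and Zfp953 (with each other), Zfp597 (with Zfp174 among others), Zfp605, Zfp608, Zfp646, Zfp653, Zfp687, Zfp708, Zfp710, Zfp804b and Zfp827.

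Zfp697 and Zfp7 overlapped no other gene. Zfp697 was read at 254 of 322 and 190 of 243 from BL6, and Zfp7 at 63 of 87 and 33 of 42. Zfp385a, which encodes a nucleic acid-binding zinc finger protein, had 70 of 99 and 134 of 176 BL6 reads. Shares of 0.7 or more were also found for Zfp408 (0.889 adult and 0.750 aged, overlapping Arhgap1), Zfp273 (0.771 and 0.774), Zfp963 (0.713 and 0.719) and Zfp317 (0.706 and 0.773, named after its values were seen). Zfp963, Zfp7, Zfp273 and Zfp780b shared 20.6% to 40.4% of their 50-base words with another gene, which limits how well their alleles can be assigned. The remaining 3 genes with a high share, Zfp607, Zfp626 and Zfp780b, are neighbors on chromosome 7 and are described with the clusters.

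On the CAST side, Zfp619 (chr7:39517766-39540415) had 17 BL6 reads of 92 in the adult and 2 of 42 in the aged heart. Those are BL6 shares of 0.185 (95% interval 0.111 to 0.279) and 0.048 (0.006 to 0.162), and the gene had 13 linker matches. Zfp706 had 49 of 129 and 13 of 74 BL6 reads, and Zfp605 63 of 183 and 32 of 145. Zfp598, which encodes the ubiquitin ligase that marks collided ribosomes, had 63 of 151 and 39 of 150. Zfp57, the KRAB protein that protects methylated imprints in the early embryo, was read at 18 of 57 and 17 of 60 from BL6. The other CAST-biased members with the lowest mean shares were Zfp146, Zfp212, Zfp558, Zfp583 and Zfp946, with shares of 0.219 to 0.370 across both libraries.

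Across all members the shares of the adult and aged libraries correlated with Pearson's r of 0.571 and Spearman's rho of 0.571. Over all autosomal genes r was 0.665. Over the 127 members with at least 100 reads in both libraries r was 0.689, against 0.750 over autosomal genes at that depth. These are correlations across genes, which are not independent replicates, and the points share each library's depth.

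The second question was which Zfp genes changed their BL6 share between the ages. A change was called when it was 0.1 or more and its Newcombe 95% interval left out 0. The share was higher in the aged library for 23 members (8.58%, against 8.13% of autosomal genes) and lower for 27 (10.1%, against 7.8%). Over all depths these shares lie near the background. Among the 127 members with at least 100 reads in both libraries, 4.72% were higher and 11.8% lower, against 7.27% and 6.54% of autosomal genes at that depth. Among the 141 others the values were 12.1% and 8.51%, against 9.26% and 9.47%. These gaps were not tested. The median change was 0.01 over the members and 0.00 over all autosomal genes.

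The largest change in a well-read member was in Zfp157 (chr5:138441458-138460900). All 276 of its adult reads came from BL6 (share 1, 95% interval 0.987 to 1), against 84 of 156 in the aged library (0.538, 0.457 to 0.618), a difference of -0.462 with an interval of -0.540 to -0.384. Its scaled reads were alike, at 28.3 RPM in the adult and 26.9 in the aged heart. The neighboring genes did not share the pattern: Zfp68 had shares of 0.548 and 0.573, and Zfp113 had 0.543 and 0.663. Zfp804b, a large gene on the same chromosome, fell from 261 of 284 to 95 of 144 BL6 reads and stayed above the pooled share in both libraries. Zfp945, on chromosome 17, fell from 927 of 1647 to 219 of 664 BL6 reads.

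Zfp108 (chr7:24254733-24262445) moved the other way, from 5 of 35 BL6 reads in the adult to 16 of 22 in the aged library. Its difference of 0.584 had an interval of 0.327 to 0.747, and 11.9% of its 50-base words occurred in another gene. Its close neighbor Zfp235 rose from 62 of 156 to 49 of 74 BL6 reads, a difference of 0.265 (0.127 to 0.387), whereas Zfp180 in the same cluster had shares of 0.540 and 0.522. Zfp457 rose by 0.338 and Zfp551 by 0.321, each on 22 to 65 reads per library. Falls were called for Zfp58 (from 53 of 67 to 18 of 38), Zfp868 (145 of 197 to 41 of 86), Zfp324 (17 of 32 to 12 of 49) and Zfp646 (18 of 30 to 7 of 22). The last of these rested on the fewest reads, and its interval of -0.500 to -0.008 came close to 0.

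**Figure D2:**
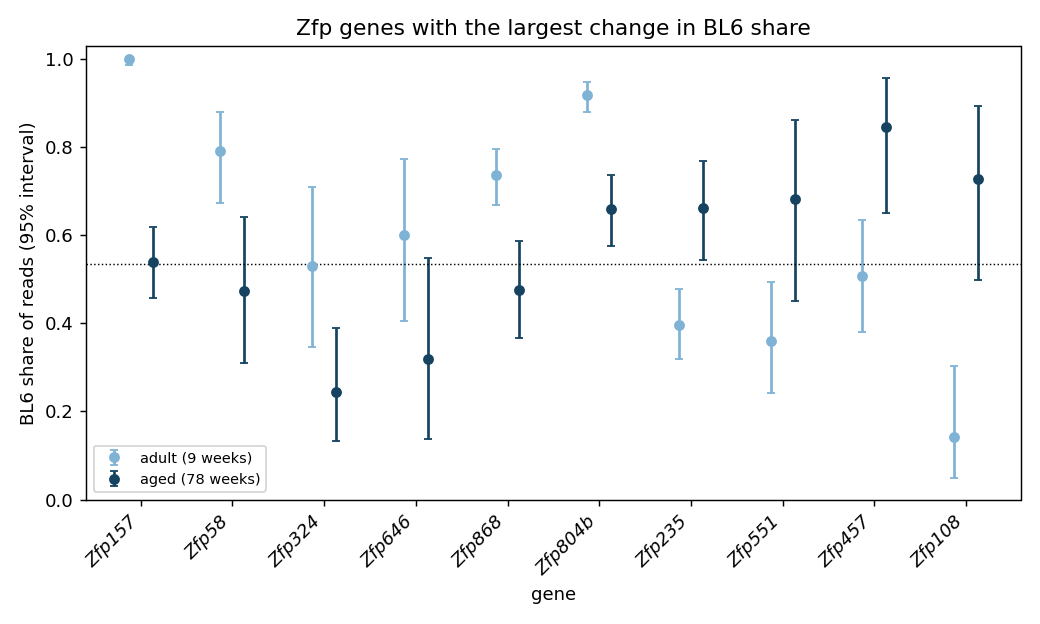
BL6 share of reads of the 10 Zfp genes with the largest called change, ordered from the largest fall to the largest rise, for the adult (light) and aged (dark) library. Points are shares of 1 library each, bars are exact 95% intervals of counting error and the dotted line is the pooled adult share; Zfp157 falls from 1 to 0.538 with narrow intervals, while Zfp108 rises on few reads.

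The third question was how much of each library the Zfp genes took at the 2 ages. Scaled reads (RPM) are relative to all SNP-overlapping reads of the library, and they depend on how many SNPs a gene carries. A difference was called when the ratio was at least 1.5 either way and its exact binomial interval left out 1. Scaled reads were higher in the aged library for 38 members (14.2%, against 26.8% of autosomal genes) and lower for 25 (9.33%, against 11.3%). After centering, 18 were higher (6.72%, against 16.8%) and 51 lower (19%, against 17.8%), so the split between rises and falls depends on the scaling. The median log2 ratio of members was 0.05 (as measured) and -0.18 (centered), so members lay below the median autosomal gene. Since members needed 20 reads in both libraries, genes that fell below that depth are missing from the counts.

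The rises that remained called after centering were led by Zfp263 (chr16:3744099-3750790), a sequence-specific transcription factor, which went from 14.5 to 43.7 RPM (log2 ratio 1.60, interval 1.29 to 1.90). Zfp385a went from 10.2 to 30.3 RPM and Zfp783 from 3.08 to 8.61 RPM. Zfp324, Zfp692, Zfp128, Zfp110, Zfp35 and Zfp335os had log2 ratios of 1.01 to 1.36. Zfp324, Zfp128 and Zfp110 lie within 1 chromosome 7 cluster, where the neighbors Zfp606 and Zfp329 had log2 ratios of 0.03 and -0.08.

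The largest fall was in Zfp459, from 13.6 to 3.44 RPM (log2 ratio -1.99, interval -2.74 to -1.30), on 133 and 20 reads. Zfp518a went from 16.9 to 6.37 RPM. Zfp385b, a paralog of Zfp385a, moved opposite to it, from 286 to 121 RPM on 2790 and 704 reads (log2 ratio -1.24, interval -1.36 to -1.12). Zfp536, a repressor of neuronal differentiation, went from 77.7 to 35.8 RPM, and Zfp608 from 1639 to 494 reads (log2 ratio -0.98). Zfp609, the paralog of Zfp608, went from 321 to 524 RPM, with a log2 ratio of 0.71 as measured and 0.48 when centered, where it was no longer called. Zfp953, Zfp827, Zfp595, Zfp558 and Zfp113 also fell, by 0.90 to 1.16 on the log2 scale.

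**Figure D3:**
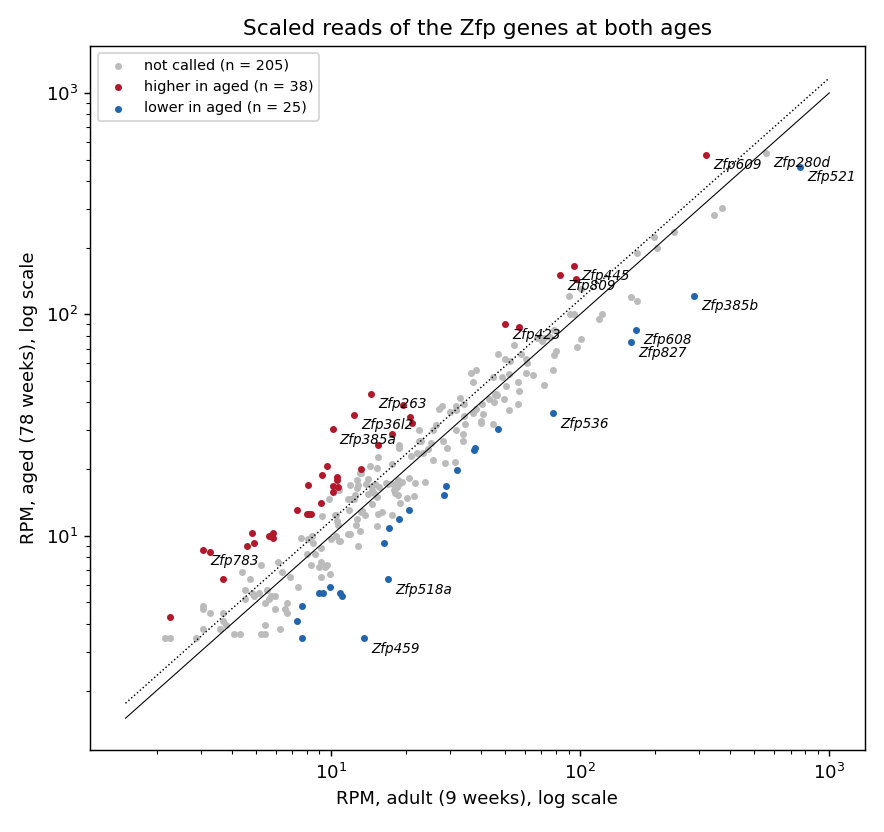
Scaled reads (RPM, log scale) of the 268 Zfp genes in the adult (x axis) and aged (y axis) library, 1 point per gene, with the 38 called higher in aged in red and the 25 called lower in blue. The solid line marks equal RPM and the dotted line the median ratio of all autosomal genes; Zfp521 and Zfp385b fall well below both lines, and Zfp263, Zfp385a and Zfp36l2 lie above both.

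The 10 members with most reads did not move together. Zfp521, which antagonizes early B-cell factors in stromal and fat cells, had the most reads and went from 766 to 463 RPM (log2 ratio -0.73, interval -0.79 to -0.66). Zfp280d had 555 and 537 RPM, Zfp407 372 and 302, Zfp148 343 and 280, Zfp644 238 and 235, Zfp710 204 and 199, Zfp106 198 and 224, and Zfp532 169 and 190, none of them called. The other two, Zfp385b and Zfp609, are given above. Scaled reads were also divided by row length, which does not correct for SNP density. Per kilobase, Zfp945 stood at 8.21 RPM in the adult and 5.55 in the aged heart, and Zfp280d at 6.25 and 6.05. Zfp260 stood at 4.43 and 6.83 and Zfp521 at 2.68 and 1.62.

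Members with known roles were then taken group by group. All 3 CCCH mRNA decay factors had more scaled reads in the aged library: Zfp36l2 went from 12.4 to 35.1 RPM, Zfp36l1 from 17.6 to 28.8 and Zfp36, also called tristetraprolin, from 3.69 to 6.37. Among all autosomal genes 26.8% were called higher. After centering only Zfp36l2 was called, at a log2 ratio of 1.28, beside 16.8% of autosomal genes called higher. None of the 3 was allele-biased, beside 13.7% of autosomal genes BL6-biased and 12.8% CAST-biased.

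Of the 7 listed KRAB repressors of imprints and retroelements, 6 were members, 4 of them higher in the aged library and none lower, against 26.8% and 11.3% of autosomal genes. Zfp445, which maintains imprints alongside Zfp57, went from 94.4 to 166 RPM, Zfp57 itself from 5.85 to 10.3, and Zfp809, the silencer of murine leukemia proviruses, from 83.3 to 150. These 3 were still called after centering, where 16.8% of autosomal genes were called higher. Zfp568, which represses a placental form of Igf2, went from 96.0 to 145 RPM and lost its call when centered. Zfp932 was not called for scaled reads (17.5 and 21.2 RPM), but its BL6 share rose from 0.602 to 0.756, with 55.5% of its 50-base words occurring in another gene. Zfp708 had 18.8 and 17.0 RPM, and all of its 50-base words occurred in another annotated gene. By allele, Zfp445 and Zfp568 were BL6-biased and Zfp57 and Zfp809 CAST-biased, beside 13.7% and 12.8% of autosomal genes. The Zfp809 call ended with a reference share of 0.5, and its row overlapped Zfp599.

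The 5 fat and stromal cell regulators split, with 1 called higher and 1 lower as measured, beside 26.8% and 11.3% of autosomal genes. When centered, 16.8% of autosomal genes were called higher and 17.8% lower. Zfp423, which commits cells to the fat lineage, had 487 adult and 523 aged reads (log2 ratio of RPM 0.85) and was called higher on both scales, while Zfp521 fell. Zfp516 had 51.7 and 53.9 RPM and was BL6-biased, Zfp638 had 160 and 119 RPM and was called lower only when centered, and Zfp467 had 12.8 and 16.9. Beside them, the summed adipocyte markers had 22.5 and 19.8 RPM and the fibroblast markers 610 and 1012.

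Among 9 chromatin complex partners, Zfp609 and Zfp687 were higher in the aged library, and Zfp827, which brings the NuRD complex to telomeres, and Zfp462 were lower. The counts in this paragraph stand beside 26.8% of autosomal genes called higher and 11.3% called lower as measured. When centered, those shares were 16.8% and 17.8%. Zfp687 had a log2 ratio of 0.59 on 129 and 116 reads, and Zfp462 of -0.61 on 365 and 142 reads. After centering the 2 falls remained called and the 2 rises did not. Zfp410, an activator of the remodeler gene Chd4, had a log2 ratio of 0.22, and Chd4 itself of 0.20, neither called. Of 8 factors for RNA, ribosomes, ubiquitin or SUMO, only Zfp598 (15.5 to 25.8 RPM) and the splicing factor Zfp830 (10.2 to 15.8) were called higher, neither after centering, where Zfp326 was called lower. Zfp106 and Zfp346, which bind RNA, were BL6-biased at shares of 0.604 to 0.691, beside 13.7% of autosomal genes BL6-biased. Of the 4 widely expressed sequence-specific factors, Zfp143, Zfp148 and Zfp384 were not called on either scale, and Zfp263 was the exception.

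Position on the chromosomes was not used to choose the genes, apart from leaving out the sex chromosomes. Members lay on all 19 autosomes, with 61 on chromosome 7, 36 on chromosome 17 and 30 on chromosome 13. Joining members no more than 500 kb apart gave 20 clusters of at least 3, which held 138 members on 11 chromosomes. Clustered members had a median log2 ratio of -0.06 and the 130 others 0.10. Of the clustered members 19 (13.8%) were called higher and 16 (11.6%) lower in the aged library, and of the others 19 (14.6%) and 9 (6.92%), against 26.8% and 11.3% of autosomal genes. Scaled reads for members with at least 5 linker matches were higher for 8 (6.84%) and lower for 11 (9.4%) of 117, and for the 145 with fewer they were higher for 28 (19.3%) and lower for 14 (9.66%), set against the same background, with median log2 ratios of -0.06 and 0.12.

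The largest cluster, on chromosome 13 (chr13:67038594-67827000), held 19 members. Its summed reads went from 289 to 230 RPM, 8 members were called lower and 0 higher (11.3% and 26.8% of autosomal genes), and 14 had a log2 ratio below 0. Zfp874a, its best-read gene, went from 47.0 to 30.5 RPM and Zfp874b had a log2 ratio of -0.60. Zfp459, Zfp595, Zfp953, Zfp458, Zfp712 and Zfp738 made up the other falls, whereas Zfp729b (27.1 and 37.4 RPM) and Zfp748 (15.4 and 20.2) had positive ratios that were not called. Without Zfp874a the log2 ratio of the cluster was -0.28, beside -0.33 with it. The 3 genes of other families in the interval had a median log2 ratio of -0.25 and 1 of them was called lower. Shared 50-base words reached 100% in Zfp708 and 50.2% in Zfp58, and the rows of Zfp595 and Zfp953 overlap each other.

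A cluster on chromosome 7 (chr7:27731409-28379228) stood out by allele. Its 7 members pooled to an adult BL6 share of 0.705 and an aged share of 0.725. Of them 4 were BL6-biased and 0 CAST-biased, beside 13.7% and 12.8% of autosomal genes. Zfp607 had 474 of 598 and 289 of 349 BL6 reads, Zfp626 242 of 329 and 126 of 167, Zfp780b 109 of 142 and 75 of 93, and Zfp59 58 of 89 and 28 of 38. Zfp607 had no GENCODE or RefSeq entry, so its shared sequence could not be checked, and Zfp59 shared 52.4% of its 50-base words with another gene. Zfp60, the second best-read gene there, had shares of 0.568 and 0.524, so the bias did not extend over the whole cluster. Without Zfp607 the pooled shares were 0.653 and 0.660. The 5 genes of other families in the interval had median shares of 0.620 and 0.539, and 2 were BL6-biased, beside the same 13.7%.

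The next cluster along chromosome 7 (chr7:29768552-30169779) held 14 members, of which 6 were BL6-biased and Zfp146 was CAST-biased, beside 13.7% and 12.8% of autosomal genes. Its pooled share was 0.598 and 0.624, and its summed reads went from 344 to 453 RPM. Zfp260, a zinc finger activator that works with Gata4 in heart muscle, went from 56.9 to 87.7 RPM with BL6 shares of 0.620 and 0.670. Zfp568 and Zfp382 were also called higher, so 3 of 14 members were called higher and 0 lower. Among autosomal genes 26.8% were called higher and 11.3% lower. None of the 3 was called after centering, where 16.8% of autosomal genes were called higher. Without Zfp568 the cluster's log2 ratio was 0.31, beside 0.39 with it.

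Only the best-read member of each cluster was left out in turn, so a shift that rests on another member is not shown this way. An example is the chromosome 5 cluster, which went from a pooled share of 0.672 to 0.578 and holds Zfp157 beside its best-read member Zfp68. In 3 clusters given here the pooled value moved mainly with the best-read gene. The 17 members on chromosome 17 (chr17:21008941-23599755) went from a pooled BL6 share of 0.544 to 0.467, but without Zfp945 from 0.534 to 0.521. The chromosome 16 cluster of Zfp263, Zfp174 and Zfp597 went from 31.6 to 63.9 RPM, and its log2 ratio without Zfp263 was 0.23. The chromosome 9 cluster with Zfp809 and Zfp653 went from 152 to 232 RPM, a log2 ratio of 0.61 that was 0.25 without Zfp809. On chromosome 7 the cluster of Zfp715, Zfp658 and Zfp719 went from a share of 0.490 to 0.626, and without Zfp715 from 0.496 to 0.571. No interval is given for that smaller difference, so whether the rise goes beyond Zfp715 was not tested. All 3 members had a higher aged share, and Zfp715 (192 of 395 to 152 of 229) was the one called.

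**Figure D4:**
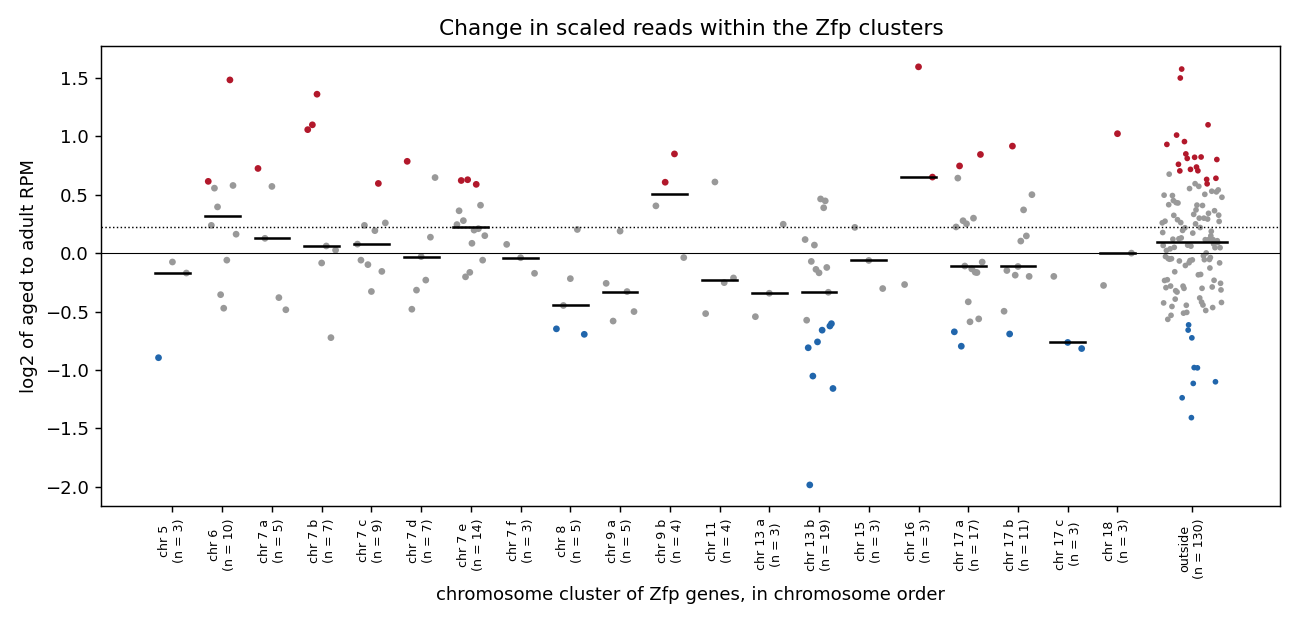
Log2 ratio of aged to adult RPM of Zfp genes in the 20 chromosome clusters and outside them, 1 point per gene, with genes called higher in red, lower in blue and not called in gray. Short black bars are group medians, the solid line marks 0 and the dotted line the median of all autosomal genes at 0.22; letters tell clusters of 1 chromosome apart, and chr 13 b, with 8 blue points of 19, is the cluster described for Zfp459.

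The partners through which KRAB zinc finger proteins act were listed by role, and 18 of 20 were measured (not Sumo2 and Uhrf1). Scaled reads were higher in the aged library for 5 (Cbx3, Cbx5, Dnmt3a, Mphosph8 and Trim28) and lower for Atf7ip, which went from 342 to 220 RPM, beside 26.8% and 11.3% of autosomal genes. After centering 1 was called higher and 1 lower, beside 16.8% and 17.8% of autosomal genes. Trim28, the corepressor, had only 52 and 47 reads and was CAST-biased, with shares of 0.327 and 0.383. Both of its calls lay at the edge. Its aged share interval ended at 0.536, against a pooled share of 0.538, and its RPM ratio of 1.52 had an interval from 1.001. Dnmt1, the maintenance DNA methyltransferase, went from a BL6 share of 0.645 to 0.866, and Hdac2 from 0.516 to 0.651. Setdb1 had shares of 0.564 and 0.624 and 64.5 and 76.0 RPM.

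The nearest other zinc finger families were small. Of 28 Zbtb genes, which pair zinc fingers with a BTB domain, 9 (32.1%) were higher and 2 (7.14%) lower in the aged library, with a median log2 ratio of 0.39, and 2 were BL6-biased and 3 CAST-biased. Of 16 Zscan and Zkscan genes, 2 (12.5%) were higher and 3 (18.8%) lower, with a median of 0.09, and 5 were BL6-biased and 2 CAST-biased. The autosomal shares were 26.8% higher, 11.3% lower, 13.7% BL6-biased and 12.8% CAST-biased. The differences between families were not tested.

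**Figure D5:**
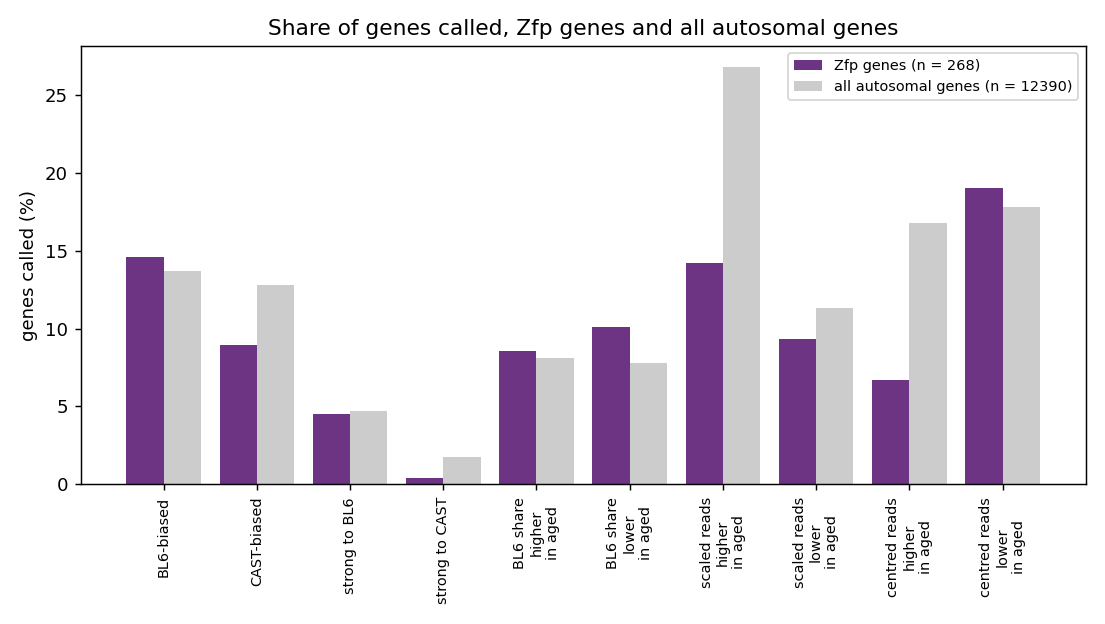
Percent of the 268 Zfp genes (purple) and of all 12390 autosomal genes with the same depth (gray) that each rule called, where centered means relative to the median ratio of all autosomal genes. The bars start at 0 and have no error bars because there is 1 library per age; the widest gap is for scaled reads higher in aged, 14.2% against 26.8%.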

How the data were processed

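Nuclei were sorted by DRAQ7 and sequenced as droplet single-nucleus RNA libraries, 1 per age. The authors aligned them with Cell Ranger 7.1.0 to mm10, pooled the reads of nuclei with an active BL6 X, and counted SNP-overlapping reads per RefSeq gene and allele with Allelome.PRO2. The deposited counts are BL6, CAST and total reads per gene row, introns included. The deposited fraction (allelic ratio, 2 decimals) was used only as an alternative, since the share was recomputed from counts, while the deposited allelic score was not used. The allelic reads were taken from the aligned reads and not from the count matrices that the authors cleaned of free RNA with CellBender, so they are taken to include free RNA. Strand use and collapse of duplicate reads are not given for these counts in the sources used here. Reads are not molecules, so intervals are too narrow if several reads came from 1 molecule. Alignment to a BL6-type genome can favor BL6 reads, which is why biases were set against the pooled autosomal share of each library (9747535 and 5805807 SNP-overlapping reads) rather than 0.5.

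Python 3.11.15, pandas 2.3.3 and SciPy 1.17.1 gave exact Clopper-Pearson intervals of shares, Newcombe intervals of differences and exact binomial intervals of RPM ratios, all at 95%, tested on simulated data. With 1 library per age no p-value was computed. Deposited starts are counted from 0 and were raised by 1. Overlap with another row was 1 base or more. RefSeq matched 267 members.

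Genes and lists were chosen with earlier results of these data known. Named genes were up to 10 with the most extreme mean share among those biased each way, up to 10 each with the largest called change in share, rise and fall, the 10 with most reads, the 2 best-read and any strongly biased genes of each cluster, and the role groups. Alternatives were a minimum of 100 reads, no overlapping genes, other reference shares, thresholds, intervals, scalings and cluster distances, and, added after seeing the data, no genes with shared or no coding transcript.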

Additional observations from a re-analysis of the deposited data

Results flagged for a closer look

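Across the members 2 genes had intervals that lay wholly on opposite sides of the pooled autosomal BL6 share at the 2 ages, beside 198 of the 12390 autosomal genes. The BL6 share of Zfp945 was above the pooled share in the adult and below it in the aged library, a change of -0.233, and no row of another gene overlapped it. The share of Zfp235 was below the pooled share in the adult and above it in the aged library, a change of 0.265. With 1 library per age, neither difference was tested.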

How the results depend on the processing

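Requiring 100 reads in both libraries left 127 members and 8 clusters. Of these members 5 (3.94%) were strong to BL6 and 0 strong to CAST, against 2.63% and 0.792% of autosomal genes at that depth. The BL6 share was higher in the aged library for 6 (4.72%, against 7.27%) and lower for 15 (11.8%, against 6.54%). Scaled reads were higher for 16 (12.6%, against 24.3%) and lower for 9 (7.09%, against 9.93%). Leaving out the 66 members that overlap another gene left 202. Of these, 17 (8.42%) had a lower share and 16 (7.92%) lower scaled reads. Over all autosomal genes, overlapping ones included, those shares were 7.8% and 11.3%. Against a reference share of 0.5 there were 69 BL6-biased and 12 CAST-biased members. The pooled autosomal shares of 0.534 and 0.538 themselves lie on the BL6 side of 0.5, so this split is not read as a trait of the members. Limits of 0.8 and 0.2 left 1 strong to BL6. A change of at least 0.2 was found in 10 (higher) and 15 (lower), and a ratio of at least 2 in 10 (higher) and 7 (lower). For the 0.5 reference and these other limits, the shares over all autosomal genes are not given here. With the median ratio of autosomal genes set to 1, 18 were higher (6.72%, against 16.8%) and 51 lower (19%, against 17.8%). The median went from 0.05 to -0.18, the only change of sign among these summaries. Without the members that share 10% or more of their transcript or have no coding one, 5 of 225 (2.22%) were strong to BL6. Over all autosomal genes, not filtered for shared sequence, 4.72% were. The remaining counts stayed within 1.5 times of those reported, and no called value of a named gene changed sign under these settings. Of 113 named genes, centering ended the scaled-read call of 11 and made one for 11, a 99% interval ended the biased call of 5, and the 0.5 reference ended it for 6 (Zfp119a, Zfp426, Zfp583, Zfp598, Zfp644 and Zfp809) and made one for 16. Depth limits the changes in share, since 141 members had under 100 reads in a library. No paired analysis was possible because each age has 1 library, and for the same reason no library could be left out.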
